A study of Arabidopsis thaliana with 9 samples.

Results

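Class III peroxidases are secreted haem enzymes of plants that use hydrogen peroxide to oxidise phenolic compounds in the cell wall. They couple lignin monomers and cross-link wall proteins and pectin, which stiffens the wall, and they can also produce reactive oxygen species that loosen it or act in defence. Arabidopsis has a large family of such genes, many of them expressed in roots and several lying side by side as tandem copies. The family was taken as a list of 60 locus codes. Of these, 45 had a probe set that named 1 gene only and were measured individually, 6 lay on 3 probe sets that each named 2 members, and 9 were not named here and were not analysed here. No member had a second probe set naming 1 gene.

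The measurements come from one-colour Affymetrix arrays of total RNA from whole Arabidopsis thaliana seedlings kept in darkness for 10 days from germination. There were 3 arrays of L17, which the labels call a phyA' line, 3 arrays of sps1 and 3 arrays of wild type. All 3 lines are given the background Col-0, and what L17 and sps1 carry is not stated in the labels. No agent was applied to any of them. The labels do not say whether the arrays of a line came from separate plantings, and a p-value here reflects array-to-array spread alone, which may be technical. In RNA from whole seedlings, fewer cells of a type and less RNA per cell cannot be told apart.

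One array, the third of wild type, differed from the rest, and for the peroxidase genes values without it are given where it changed a call or moved a called value by over 1.5 times. On this array 12.3% of all 22746 probe sets departed more than 2-fold from the average of wild type arrays 1 and 2. Each L17 or sps1 array gave 2.1% to 3.61% against the average of the other 2 arrays of its line. Wild type arrays 1 and 2 gave 5.69% and 5.94%, against averages that include array 3. Median signals lay between 143.3 and 153.4 on the L17 arrays, 137.6 and 141.5 on the sps1 arrays, and 147.0 and 155.0 on the wild type arrays. Those of sps1 were thus below all others. The ratio of 3' to 5' ubiquitin control probe sets, a measure of RNA completeness, averaged 2.32 ± 0.103 in L17, 2.49 ± 0.066 in sps1 and 1.85 ± 0.0915 in wild type (SD, n = 3 each), with an exact two-sided permutation p of 0.1 for L17 and for sps1 relative to wild type, which is the lowest value 3 against 3 arrays can give. PYK10, a beta-glucosidase abundant in Arabidopsis roots, read between 13219 and 18976 on all arrays and was called in no comparison. The same ratio for GAPDH averaged 1.58 ± 0.234 in L17, 1.70 ± 0.167 in sps1 and 1.42 ± 0.112 in wild type (exact permutation p of 0.4 for L17 and 0.1 for sps1), and that for actin 20.6, 22.4 and 19.3 in the same lines (exact permutation p of 0.6 and 0.5). The part of these differences between arrays in the results below was not tested.

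Of the 45 peroxidase genes, 16 differed between lines in at least 1 of 3 comparisons (35.6%, against 21% of all probe sets) and 29 were called in none. Differences are log2 fold changes of signal after adding 16, with the SE of the linear model, and a gene was called at a limma adjusted p under 0.05 over all probe sets. In L17 against wild type 10 of 45 were called (22.2%), against 11.4% of all probe sets. Of these, 6 were higher (13.3%, against 5.32% of all probe sets) and 4 were lower (8.89%, against 6.12%). In sps1 against wild type 11 were called (24.4%, against 14.6%), 3 of them higher (6.67%, against 6.68%) and 8 lower (17.8%, against 7.94%). In sps1 against L17 10 were called (22.2%, against 6.86%), 1 higher (2.22%, against 3.14%) and 9 lower (20%, against 3.72%). Both comparisons with wild type use the same 3 wild type arrays.

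The median log2 fold change of the 45 genes was -0.02 in L17 against wild type, -0.21 in sps1 against wild type and -0.18 in sps1 against L17. The medians over all probe sets were 0.01, -0.01 and -0.02 in the same comparisons. The arrays of the 2 lines did not overlap for 14 members in L17 against wild type (31.1%), a share near that of all probe sets (31.2%). In sps1 against wild type this held for 19 members (42.2%, against 33.4%), of which 15 were lower (33.3%, against 16.9%). In sps1 against L17 it also held for 19 (42.2%, against 30.7%), with 15 again lower in sps1 (33.3%, against 17%).

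**Figure D1:**
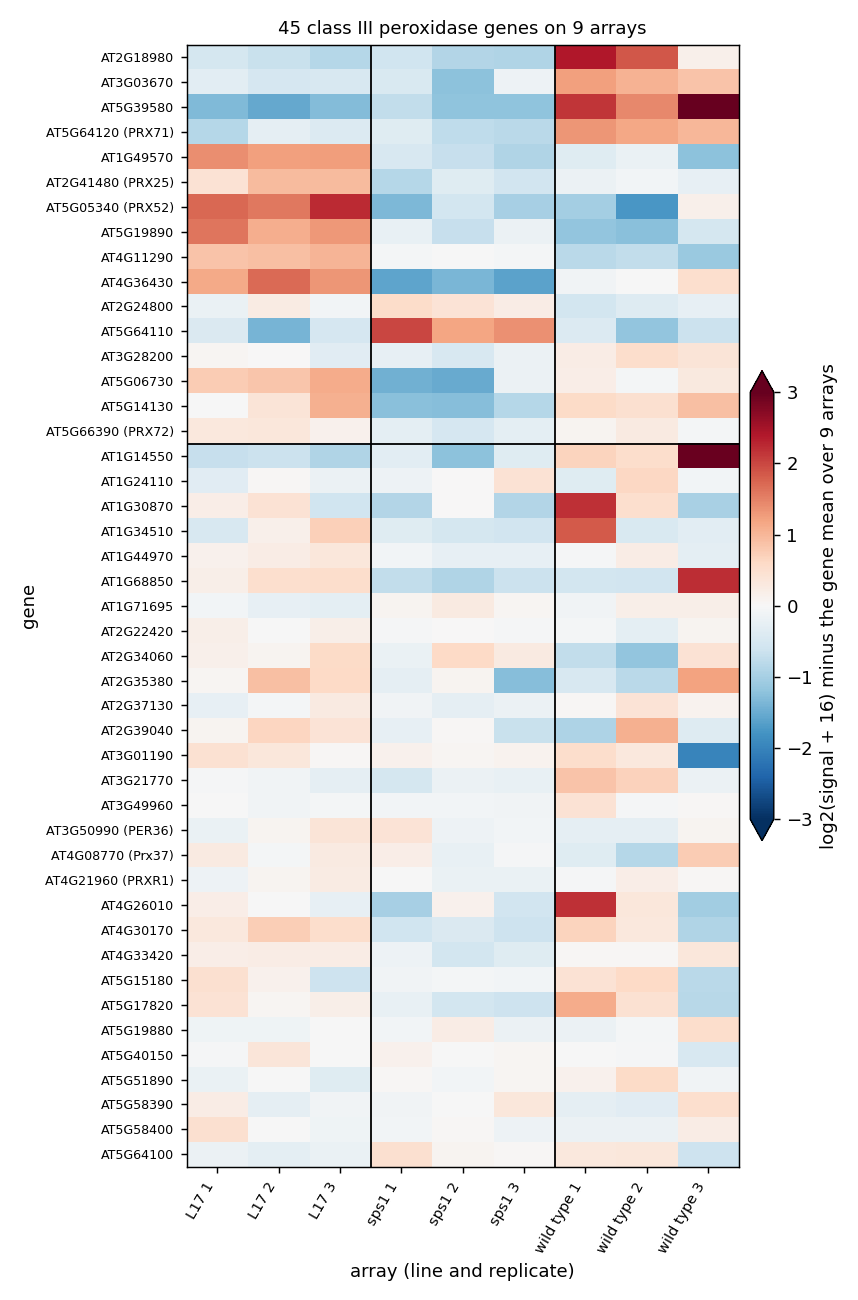
Each row is 1 of the 45 peroxidase genes and each column 1 array, with colour giving log2(signal + 16) minus the gene's mean over the 9 arrays and saturating beyond 3 in either direction. The 16 genes called in at least 1 comparison stand above the horizontal line, and the 4 genes at the top are low on the L17 and sps1 arrays.

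Peroxidase genes that were lower in both L17 and sps1 than in wild type numbered 4, among them PRX71 (AT5G64120), a cell wall peroxidase known to restrict growth when the wall is impaired. PRX71 read 3015, 4505 and 4088 on the L17 arrays, 4216, 3239 and 3115 on the sps1 arrays, and 13742, 12168 and 10875 on the wild type arrays. Every wild type array lay above every array of the other lines, by more than 2-fold. The log2 fold change was -1.67 ± 0.20 in L17 (limma adjusted p = 0.00118) and -1.80 ± 0.20 in sps1 (limma adjusted p = 0.000616). In sps1 against L17 the difference was -0.13, with a 95% interval of -0.57 to 0.32.

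AT5G39580 had the lowest fold changes of the measured members in both comparisons with wild type. It read 218.7, 187.0 and 224.0 in L17, 340.3, 239.4 and 239.1 in sps1, and 2606, 1591 and 7847 in wild type. The third wild type array was the highest, and the other wild type arrays were still more than 4 times any array of L17 or sps1. The log2 fold change was -3.83 ± 0.49 in L17 (limma adjusted p = 0.00178), and it was -3.49 ± 0.49 in sps1 (limma adjusted p = 0.00205). Without the third wild type array the values were -3.19 (limma adjusted p = 0.00033) and -2.85 (limma adjusted p = 0.000438). All sps1 arrays lay above all L17 arrays, at 0.34 in sps1 relative to L17, which was not called (limma adjusted p = 0.776).

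The remaining genes of this group were AT2G18980 and AT3G03670. AT2G18980 read 165.0, 148.8 and 127.3 in L17, 156.8, 126.9 and 123.5 in sps1, and 1372, 941.6 and 272.7 in wild type. Here the third wild type array was the lowest of its line, though still above all L17 and sps1 arrays. Its log2 fold change was -2.16 ± 0.48 in L17 (limma adjusted p = 0.0227) and -2.27 ± 0.48 in sps1 (limma adjusted p = 0.0152), while leaving out wild type array 3 gave -2.83 in L17 and -2.93 in sps1. The call in L17 was lost without wild type array 2 (adjusted p = 0.073) or L17 array 1, 2 or 3 (0.0612, 0.0694 or 0.0777), and the call in sps1 without wild type array 2 (0.0515) or sps1 array 2 or 3 (0.0526 or 0.0539). AT3G03670 was dim throughout, at 18.2, 14.3 and 14.7 in L17, 15.4, 2.28 and 22.9 in sps1, and 84.7, 72.4 and 62.1 in wild type. It changed by -1.48 ± 0.26 in L17 (limma adjusted p = 0.00769) and by -1.65 ± 0.26 in sps1 (limma adjusted p = 0.00359), and with a pseudocount of 1 the L17 call was lost (adjusted p = 0.0934).

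A second group of 4 genes was higher in L17 than in both sps1 and wild type, and sps1 against wild type was not called for any of them. It includes PRX52 and PRX25, peroxidases known for lignin formation in Arabidopsis stems. The role is not particular to this group, since PRX72 (AT5G66390), also known for lignin formation, was not called in L17 against wild type (0.15, limma adjusted p = 0.549). PRX52 (AT5G05340) read 195.5, 176.8 and 288.6 in L17, 9.19, 27.7 and 16.1 in sps1, and 15.8, 3.14 and 55.9 in wild type. All L17 arrays stood far above the others, which did not exceed 55.9. The log2 fold change was 2.72 ± 0.44 in L17 against wild type (limma adjusted p = 0.00587) and -2.82 ± 0.44 in sps1 against L17 (limma adjusted p = 0.00727). With a pseudocount of 1 the second of these had an adjusted p of 0.0596.

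PRX25 (AT2G41480) read 486.8, 695.8 and 698.1 in L17, 187.0, 270.3 and 232.3 in sps1, and 311.0, 331.1 and 296.2 in wild type. The 3 lines did not overlap, with L17 highest and sps1 lowest. L17 was 0.95 ± 0.19 above wild type (limma adjusted p = 0.0133), a call lost without L17 array 2 (0.056) or 3 (0.0501), and sps1 was -1.38 ± 0.19 relative to L17 (limma adjusted p = 0.00355). In sps1 against wild type the value was -0.43, with a limma adjusted p of 0.167.

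AT1G49570 and AT5G19890 had the same order of calls. AT1G49570 read 1137, 1017 and 1034 in L17, 302.5, 258.6 and 218.7 in sps1, and 326.5, 367.4 and 173.8 in wild type. The sps1 and wild type arrays overlapped, with a log2 difference of -0.09 and a 95% interval of -0.67 to 0.49. L17 was 1.88 ± 0.26 above wild type (limma adjusted p = 0.00247), and sps1 was -1.98 ± 0.26 relative to L17 (limma adjusted p = 0.00292). AT5G19890 averaged 254 ± 49.7 in L17, 67.6 ± 15.3 in sps1 and 39.0 ± 16.2 in wild type (SD, n = 3 each), a log2 fold change of 2.32 ± 0.24 in L17 against wild type (limma adjusted p = 0.000687) and of -1.69 ± 0.24 in sps1 against L17 (limma adjusted p = 0.00471). In sps1 against wild type it gave 0.62 (limma adjusted p = 0.127), or 0.85 with a call when the third wild type array was left out (adjusted p = 0.0323).

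AT4G11290 was the one member called higher in both lines. It read 2628, 2746 and 2991 in L17, 1400, 1434 and 1407 in sps1, and 828.3, 867.4 and 663.5 in wild type. The 3 lines formed 3 separate levels with little spread inside each. L17 was 1.81 ± 0.14 above wild type (limma adjusted p = 0.000121), sps1 was 0.84 ± 0.14 above wild type (limma adjusted p = 0.00462), and sps1 was -0.97 ± 0.14 relative to L17 (limma adjusted p = 0.00462). All 3 calls stood with each array left out in turn.

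AT4G36430 was the one member called in opposite directions in the 2 lines. It read 515.2, 771.6 and 587.9 in L17, 64.3, 77.8 and 62.6 in sps1, and 206.2, 224.6 and 325.6 in wild type. No array of any line reached into the range of another line. The log2 fold change was 1.26 ± 0.21 in L17 against wild type (limma adjusted p = 0.00631), -1.65 ± 0.21 in sps1 relative to wild type (limma adjusted p = 0.00129) and -2.91 ± 0.21 in sps1 against L17 (limma adjusted p = 0.000156). With each array left out in turn all 3 calls stood, and the value for sps1 against L17 lay between -3.04 and -2.75.

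**Figure D2:**
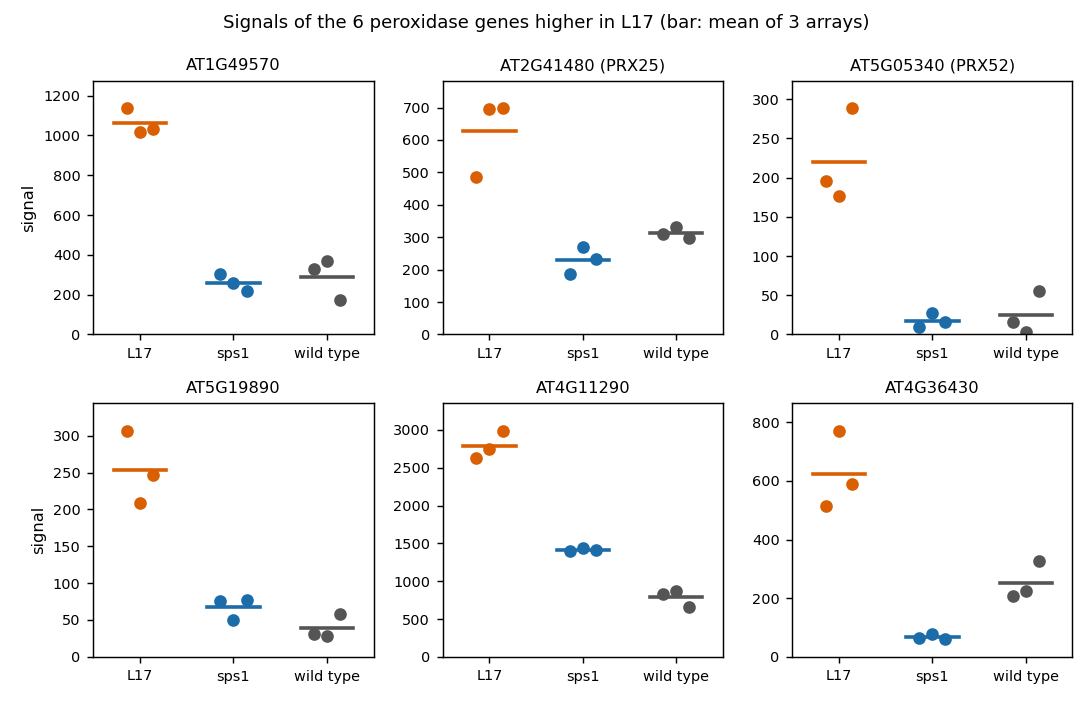
Signals on a linear scale from 0 on each of the 3 arrays of L17, sps1 and wild type, with a bar at the mean of the line, for the 6 genes called higher in L17 than in wild type. In all 6 the L17 arrays lie above all others, while sps1 lies above wild type in AT4G11290 and below it in AT4G36430.

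Genes called in sps1 against wild type without a call in L17 against wild type numbered 5, of which 2 were higher and 3 lower in sps1. AT5G64110 rose most. It read 266.4, 130.4 and 254.1 in L17, 1511, 854.6 and 970.6 in sps1, and 271.3, 152.6 and 228.8 in wild type. The L17 and wild type arrays covered the same range, and every sps1 array lay more than 3 times above it. Relative to wild type, sps1 was 2.26 ± 0.32 higher on the log2 scale (limma adjusted p = 0.00241), and relative to L17 it was 2.29 ± 0.32 higher (limma adjusted p = 0.00458). The difference of L17 from wild type was -0.03, with a 95% interval of -0.77 to 0.71.

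AT5G14130 was nearly without signal in sps1. It read 33.8, 49.6 and 90.2 in L17, 5.21, 4.84 and 11.8 in sps1, and 59.0, 54.3 and 78.6 in wild type, so all sps1 arrays lay under the pseudocount of 16 and all others above it. Relative to wild type sps1 was at -1.78 ± 0.27 on the log2 scale (limma adjusted p = 0.00328), and relative to L17 at -1.61 ± 0.27 (limma adjusted p = 0.0101). AT5G06730 read 70.0, 74.6 and 94.3 in L17, 2.76, 2.00 and 28.9 in sps1, and 42.1, 32.7 and 46.8 in wild type. In sps1 it was -1.94 ± 0.33 relative to L17 (limma adjusted p = 0.0098) and -1.18 ± 0.33 relative to wild type (limma adjusted p = 0.0432). The call against wild type was lost with any array other than sps1 array 3 left out, with adjusted p between 0.0598 and 0.135, whereas without sps1 array 3 it was kept. It was also lost with a pseudocount of 1, which moved the value to -2.56 (adjusted p = 0.0799), with quantile normalization (0.0828), median centring (0.0533), array weights (0.0715) and a fit of sps1 and wild type alone (0.0984). Without sps1 array 3 the difference of L17 from wild type, 0.76, was also called (adjusted p = 0.0273).

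The other calls confined to 1 comparison were smaller than 2-fold. AT2G24800 averaged 128 ± 16.6 in sps1 and 67.3 ± 8.71 in wild type (SD, n = 3 each), which is 0.78 ± 0.17 higher on the log2 scale (limma adjusted p = 0.0145), and it lost its call without sps1 array 1 (0.0544) or 2 (0.0503). AT3G28200 averaged 636 ± 69.7 in sps1 and 1024 ± 106 in wild type, a log2 difference of -0.67 ± 0.16 (limma adjusted p = 0.0243), and it lost its call without wild type array 2 (0.0771) or sps1 array 1 (0.0597) or 2 (0.0872), or with the replicate number as a block (0.0634). PRX72 (AT5G66390), known for lignin formation in Arabidopsis, was called only in sps1 against L17. It read 4071, 4154 and 3580 in L17, 2685, 2319 and 2668 in sps1, and 3497, 3986 and 3154 in wild type, so all sps1 arrays lay below the rest. The difference of -0.62 ± 0.14 between sps1 and L17 (limma adjusted p = 0.0338) kept its call without wild type array 2 or 3 and lost it without any one of the other 7 arrays (adjusted p between 0.0554 and 0.128) or with the replicate block (0.0826), and sps1 against wild type gave -0.47 (limma adjusted p = 0.0593), or -0.55 without the third wild type array (adjusted p = 0.0365).

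**Figure D3:**
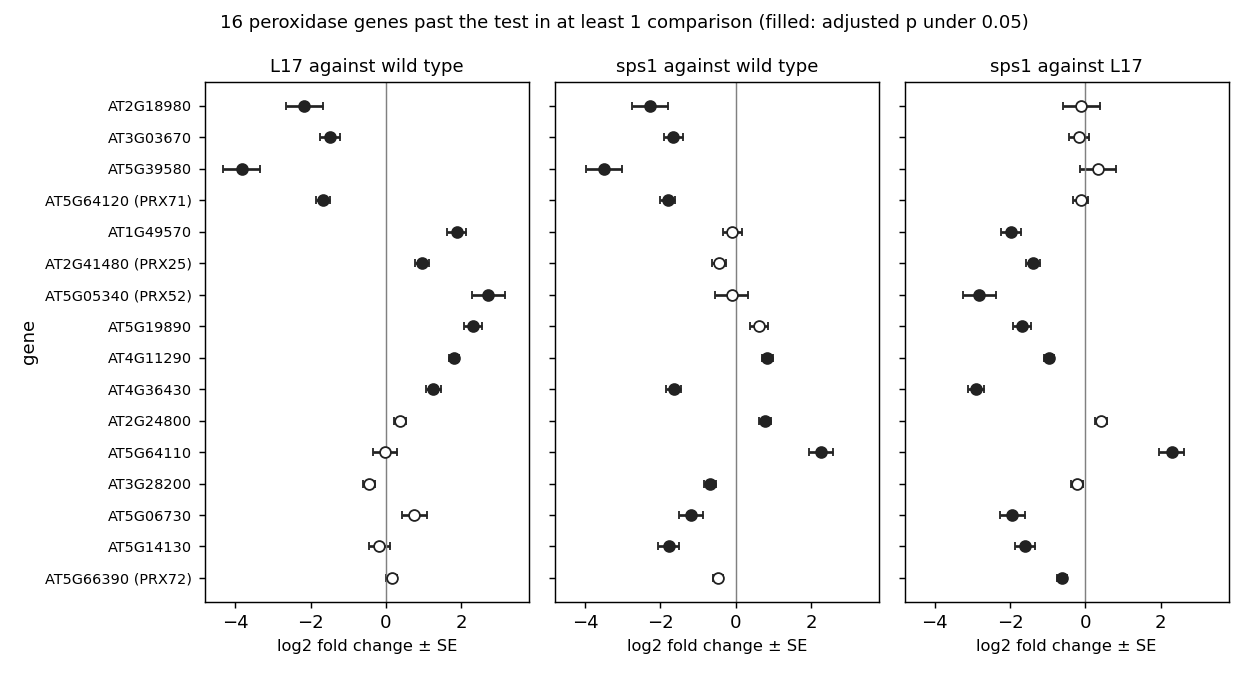
Log2 fold change of log2(signal + 16) with the SE of the model for the 16 called genes in the 3 comparisons, filled where the limma adjusted p was under 0.05. The first 4 genes lie near -1.5 to -3.8 in both comparisons with wild type and between -0.17 and 0.34 in sps1 against L17. In the panel of sps1 against L17 AT5G64110 is the one filled point above 0.

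In 1 group of 3 neighbouring genes the members had different patterns of calls. Among the 60 locus codes 17 fell into 8 groups of direct neighbours in the order of protein-coding genes, and 9 of these 17 were measured individually. The 3 neighbours AT5G64100, AT5G64110 and AT5G64120 (PRX71) were all measured. The first of them read 9164, 8489 and 8991 in L17, 14356, 11009 and 10572 in sps1, and 12932, 13078 and 6734 in wild type, and no comparison was called for it (limma adjusted p between 0.426 and 0.699). Its wild type arrays spanned almost a 2-fold range, with array 3 the lowest, and its 95% interval for L17 against wild type was -0.82 to 0.35. All its sps1 arrays lay above all its L17 arrays, at 0.42 in sps1 relative to L17 (limma adjusted p = 0.426). Without wild type array 3 that adjusted p was 0.105. Next to it AT5G64110 was higher in sps1 alone and PRX71 lower in both lines, as given above. Members of such a group can share probe sequence, and cross-hybridisation between neighbours was not tested.

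**Figure D4:**
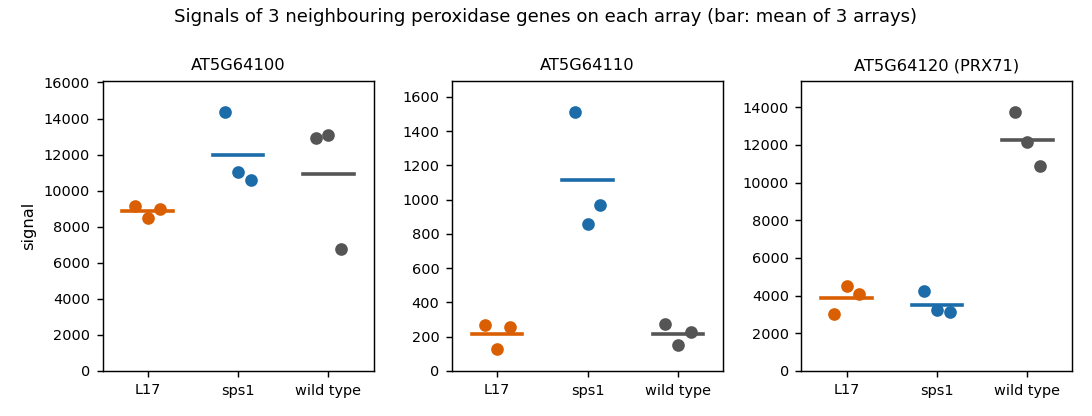
Signals on a linear scale from 0 on each array of L17, sps1 and wild type, with a bar at the mean of 3 arrays, for 3 genes that are direct neighbours. AT5G64100 overlaps between sps1 and wild type, AT5G64110 stands out in sps1 between 854.6 and 1511, and AT5G64120 is higher on every wild type array than on any L17 or sps1 array.

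In 2 further groups of neighbours more than 1 gene was measured, but dim signals left no comparison between the genes. AT5G19880, the neighbour of AT5G19890, had signals under 16 on all 9 arrays, with a range of 1.06 to 12.0. AT5G58390 and AT5G58400 were both under 16 on all arrays, so no difference between lines could be measured for them at this signal. The same held for AT3G49960 and for AT3G50990 (PER36), known for the release of mucilage from the Arabidopsis seed coat. In all 5 such members the log2 fold changes lay between -0.24 and 0.24, a range that the pseudocount compresses.

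The 2 members with the highest mean signals were called in no comparison. PRXR1 (AT4G21960) averaged 12476 ± 1709 in L17, 10939 ± 836 in sps1 and 12633 ± 1076 in wild type (SD, n = 3 each). Its 95% intervals were -0.36 to 0.31 in L17 against wild type and -0.54 to 0.13 in sps1 against wild type, which leaves out a change of 2-fold in either line. AT2G37130 averaged 15367 ± 2914 in L17, 13512 ± 822 in sps1 and 17568 ± 2487 in wild type, with intervals of -0.59 to 0.19 in L17 and -0.76 to 0.02 in sps1 against wild type. All its sps1 arrays, up to 14257, lay below all its wild type arrays, from 15740.

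Other members without a call included AT1G71695, AT1G44970, AT2G22420 and AT5G51890, with log2 fold changes between -0.39 and 0.27 in either line against wild type. Between sps1 and L17 the arrays of AT1G44970 and AT1G71695 did not overlap. AT1G44970 was at -0.42 in sps1 relative to L17 (95% interval -0.78 to -0.07, limma adjusted p = 0.161), and AT1G71695 at 0.35 (95% interval 0.04 to 0.66, limma adjusted p = 0.192). Prx37 (AT4G08770), whose overexpression is known to reduce growth in Arabidopsis, averaged 194 ± 26.4 in L17, 169 ± 26.5 in sps1 and 172 ± 114 in wild type, where array 3 read 300.9 and the others 127.2 and 87.3. Its difference of L17 from wild type was 0.32 (limma adjusted p = 0.635), and without wild type array 3 it was called at 0.78 (adjusted p = 0.0474).

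AT4G33420 lay just beyond the threshold in both comparisons of sps1. It read 2823, 2898 and 2889 in L17, 2204, 1682 and 1926 in sps1, and 2546, 2521 and 3132 in wild type. All sps1 arrays were below all others. Relative to wild type sps1 was at -0.49 ± 0.15 (limma adjusted p = 0.0568). Relative to L17 it was at -0.57 ± 0.15 (limma adjusted p = 0.0549), which was called without wild type array 3 (adjusted p = 0.0258). Without that array the value relative to wild type was -0.39 (adjusted p = 0.108).

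The third wild type array departed from the rest of its line in the peroxidase genes as well. On it 15 of the 45 members (33.3%) departed more than 2-fold from the average of arrays 1 and 2, 7 above and 8 below, where all probe sets gave 12.3%. On wild type array 1, 9 members (20%) departed in the same way from the average of the other 2, and on array 2, 10 members (22.2%). Each L17 or sps1 array had 0 to 2 such members. For wild type arrays 1 and 2 that average includes array 3, so these counts do not show how far arrays 1 and 2 differ. For example, AT1G68850 was counted on both, at 33.7 and 32.6, with 317.9 on array 3. The 7 above on array 3 were AT1G14550, AT1G68850, AT2G34060, AT2G35380, Prx37, PRX52 and AT5G39580. AT1G14550 read 27.7, 29.0 and 22.0 in L17, 40.8, 13.8 and 38.5 in sps1, and 95.1, 85.1 and 532.6 in wild type. All wild type arrays exceeded all others, but with array 3 included the limma adjusted p was 0.0502 in L17 and 0.0511 in sps1, and without it -1.33 in L17 (adjusted p = 0.0209) and -1.23 in sps1 (adjusted p = 0.022) were called. Leaving out wild type array 1 or 2 instead also gave calls, with adjusted p of 0.0486 and 0.0433 in L17 and of 0.0484 and 0.0398 in sps1. Likewise AT1G68850 read 65.4, 87.2 and 87.9 in L17, 27.8, 23.0 and 30.0 in sps1, and 33.7, 32.6 and 317.9 in wild type, where array 3 exceeded all other arrays. L17 against wild type gave 0.04, or 0.96 with a call without that array (adjusted p = 0.00765). Without it sps1 against wild type gave -0.20 (adjusted p = 0.465), compared with -1.12 on 9 arrays (adjusted p = 0.3), and the difference of -1.16 between sps1 and L17 was called (adjusted p = 0.00235, or 0.366 on 9 arrays).

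The 8 members below that average were AT1G30870, AT1G34510, AT2G18980, AT3G01190, AT4G26010, AT4G30170, AT5G15180 and AT5G17820. For AT1G34510 it was array 1 that stood out, with 74.0 on array 1, 2.32 on array 2 and 4.09 on array 3. Arrays 1 and 2 also lay far apart for AT4G26010, which read 218.4, 48.8 and 9.07 on wild type arrays 1, 2 and 3. The same held for AT1G30870, at 158.0, 38.1 and 3.58. AT3G01190 read 1141, 1043 and 844.2 in L17, 896.9, 862.9 and 894.1 in sps1, and 1201, 1032 and 195.2 in wild type. Apart from the third wild type array its arrays lay within 1.5-fold of each other. AT4G30170 read 1537, 2086 and 1805 in L17, 811.2, 909.9 and 798.3 in sps1, and 1972, 1542 and 656.5 in wild type, so the sps1 arrays lay below all L17 arrays and between the wild type arrays. AT5G17820 read between 392.0 and 508.3 in L17, between 238.6 and 319.5 in sps1, and 829.5, 523.2 and 203.5 in wild type. Without the third wild type array AT4G30170 was called in sps1 against wild type at -1.04 (adjusted p = 0.00706) and in sps1 against L17 (adjusted p = 0.00526), and AT5G17820 in sps1 against wild type at -1.25 (adjusted p = 0.00969).

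**Figure D5:**
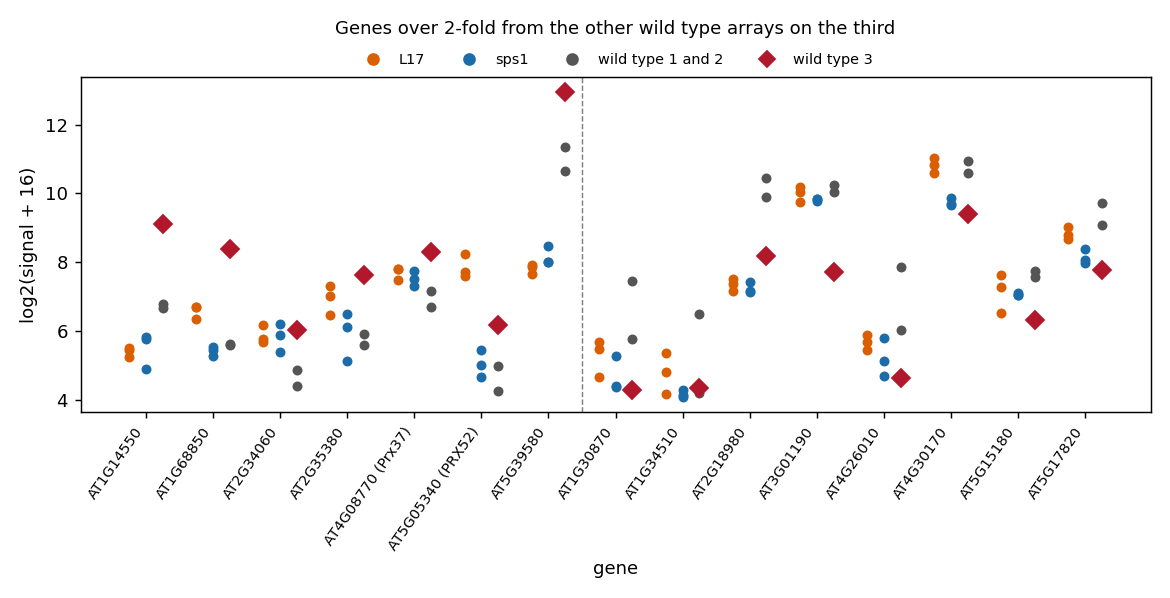
Values of log2(signal + 16) on every array for the 15 genes in which wild type array 3, drawn as a diamond, departed more than 2-fold from the average of arrays 1 and 2. On that array the 7 genes left of the dashed line lie above this average and the 8 genes right of it below it. However, AT1G34510 is high on array 1 alone, and array 1 is far above array 2 in AT1G30870 and AT4G26010. L17 and sps1 are below all wild type arrays in AT1G14550, AT5G39580 and AT2G18980.

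Leaving out this array changed the number of called members more than any other array did. It gave 15 in L17 against wild type, 17 in sps1 against wild type and 13 in sps1 against L17, with 9, 5 and 1 of them higher. All 10 called in L17 against wild type with 9 arrays remained, as did 10 of the 11 in sps1 against wild type and all 10 in sps1 against L17. The share of all probe sets called without it was 11.4%, 15% and 11.5%. Members gained in both lines against wild type were AT1G14550, AT2G34060 and AT3G21770. AT2G34060 was then at 1.23 in L17 (adjusted p = 0.0262) and 1.18 in sps1 (adjusted p = 0.0242), against 0.77 and 0.72 with no call on 9 arrays. AT3G21770 averaged 1276 ± 109 in L17, 1137 ± 152 in sps1 and 2026 ± 690 in wild type, and without the third array it was -0.91 in L17 (adjusted p = 0.0105) and -1.08 in sps1 (adjusted p = 0.00385). The third wild type array was also high in all 4 measured small heat shock genes and in 2 of 3 measured defence genes. The summed signal of 4 small heat shock genes was 406 to 506 in L17, 581 to 924 in sps1 and 779, 976 and 21515 on the wild type arrays, the last value being that of array 3. The summed signal of 3 defence genes was 123 to 261 in L17, 55.1 to 116 in sps1, and 389, 505 and 8828 in wild type, of which AT1G26380 made up 8554 on array 3. PDF1.2, a defensin of that list, read 20.2 on array 3, with 15.8 on array 1 and 17.3 on array 2 of wild type. The part of these genes in the peroxidase results was not tested. Of 11 listed small heat shock genes 4 were measured, and AT5G51440 was called lower in L17 than in wild type, at -3.15 (limma adjusted p = 0.0209). That call was lost without any 1 of the 3 L17 arrays (adjusted p between 0.0652 and 0.0664) or in a fit of L17 and wild type alone (0.0657). In sps1 AT5G51440 was at -2.37 (limma adjusted p = 0.0525), and at -1.37 with a call without wild type array 3 (adjusted p = 0.00139). Of 12 listed defence genes 3 were measured, and AT1G26380 was called lower in both lines, at -4.15 in L17 (limma adjusted p = 0.0409) and -5.58 in sps1 (limma adjusted p = 0.01). The L17 call was lost without any 1 of the L17 or sps1 arrays (adjusted p between 0.0595 and 0.122). It was also lost with a pseudocount of 1 (0.0911), trended robust moderation (0.0736) and a fit of L17 and wild type alone (0.0981).

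Genes listed as acting with class III peroxidases or as expressed beside them were sparsely named. Of 145 genes in 12 lists 18 were measured individually, and 4 lists, those of the Casparian strip, suberin, xylem with secondary wall and superoxide dismutases, had no measured member. In lignin monomer synthesis 0 of 2 measured genes were called in any of the 3 comparisons. HCT, an enzyme of that pathway, averaged 2533 ± 199 in L17, 2542 ± 248 in sps1 and 2322 ± 334 in wild type, with 95% intervals of -0.21 to 0.48 in both lines against wild type. CCR2, a cinnamoyl-CoA reductase, gave -0.70 in L17 (limma adjusted p = 0.291) and -1.12 in sps1 (limma adjusted p = 0.0834), each relative to wild type. The laccase LAC16, of another enzyme family that oxidises lignin monomers, read 55.4 on the third wild type array and under 7 on all others.

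The 2 measured enzymes that remove hydrogen peroxide inside plastids were called higher in sps1 than in wild type. TAPX, the ascorbate peroxidase of thylakoids, read 283.1, 221.1 and 234.6 in L17, 410.8, 383.8 and 330.1 in sps1, and 216.3, 203.5 and 123.0 in wild type. It was 1.02 ± 0.21 above wild type in sps1 (limma adjusted p = 0.0135), a call lost without sps1 array 1 (0.0508). SAPX, the enzyme of the stroma, averaged 739 ± 92.5 in L17, 886 ± 52.6 in sps1 and 591 ± 41.1 in wild type, 0.57 ± 0.14 above wild type in sps1 (limma adjusted p = 0.0259). The SAPX call was lost with the replicate block (0.0575) and without wild type array 1 or 2 or any 1 sps1 array (adjusted p between 0.0537 and 0.0886). These were the 2 measured genes of a list of 9, and neither was called in L17 against wild type or in sps1 against L17, though TAPX was called at 0.58 in sps1 against L17 without wild type array 3 (adjusted p = 0.0351). None of the 3 measured NADPH oxidase genes, whose family supplies superoxide at the cell surface, was called in any comparison, nor were the root hair expansins EXPA7 and EXPA18. Without wild type array 3 the NADPH oxidase gene AT4G25090 was called, at -1.34 in L17 against wild type (adjusted p = 0.0224) and 1.15 in sps1 against L17 (adjusted p = 0.0256). Without wild type array 2 EXPA7 was called, at -1.41 in L17 (adjusted p = 0.0165) and -1.73 in sps1 (adjusted p = 0.00576).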

How the data were processed

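Biotin-labelled RNA was hybridised to 9 Affymetrix arrays, 3 each of L17, sps1 and wild type. The authors deposited linear intensities, 1 value for each probe set on each array, and the submitters' processing notes name GCOS. How probes were summarised is not stated in the labels. The intensities as deposited were already scaled, since dropping the highest and lowest 2% of values left a mean of 500 on each array, and no further normalization was applied. No 2 arrays were identical.

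The 64 control probe sets were left out, and 22746 were tested as log2(signal + 16), which understates changes of dim genes. limma 3.58.1 in R 4.3.3 was fitted to all 9 arrays with line as the only term, with moderated variances (eBayes) and p-values adjusted by Benjamini-Hochberg across all probe sets. The fit was also run on simulated data with independent noise. Those data held no departing array such as the third of wild type, so that run does not bear on the calls given here. The number of arrays limits the precision.

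Probe sets were matched through the platform annotation and the RefSeq gene table of TAIR10.1, used only for names and gene order. A single gene was named for 13513 probe sets. Named were members called in any comparison, those with the 5 highest and 5 lowest mean signals, members that are direct neighbours of another, members with a recorded role, and up to 4 genes per companion list, by smallest adjusted p. Further members were named after their values were seen. Members and lists were chosen with earlier results of these data known. The alternatives tried were pseudocounts of 1 or 64, the replicate number as a block, only probe sets with a mean signal of at least 100, median centring, quantile normalization, array weights, a trended robust moderation, separate fits for 2 lines, plain probe sets, each array left out, an adjusted p of 0.01 and a minimum of 2-fold.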

Additional observations from a re-analysis of the deposited data

Results flagged for a closer look

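AT4G36430 was called in opposite directions in L17 and sps1 against wild type, and the test of the difference itself, sps1 against L17, gave a log2 value of -2.91.

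Probe sets that name 2 members were used in no comparison of single genes, and in 2 of them 1 line was called above wild type. The probe set of the neighbours AT2G18140 and AT2G18150 read 354.5, 339.3 and 326.1 in L17, 49.4, 26.0 and 49.1 in sps1, and 64.04, 83.43 and 154.1 in wild type. L17 was 1.69 ± 0.28 above wild type on the log2 scale (limma adjusted p = 0.00671). All sps1 arrays lay below all wild type arrays, at -0.97 (limma adjusted p = 0.0519), and sps1 was -2.66 ± 0.28 relative to L17 (limma adjusted p = 0.00121). The probe set of the neighbours AT2G38380 and AT2G38390 read 453.1, 425.6 and 294.0 in L17, 608.5, 580.3 and 613.8 in sps1, and 388.0, 288.3 and 278.5 in wild type. In sps1 it was 0.90 ± 0.19 above wild type (limma adjusted p = 0.0155). These values cannot be assigned to either gene of a pair.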

How the results depend on the processing

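With 9 arrays 10, 11 and 10 members were called for L17 relative to wild type, for sps1 relative to wild type and for sps1 relative to L17, in that order. With each array left out in turn the counts ran from 8 to 15, 7 to 17 and 9 to 13. The share of all probe sets called ran from 6.32% to 11.4%, 9.18% to 15% and 3.16% to 11.5% in the same fits. In sps1 against wild type array weights gave 18 members, with 19.1% of all probe sets called. An adjusted p under 0.01 gave 7 members, with 6.48% of all probe sets, and the cause was not tested. The remaining planned settings that tested all 45 members stayed within 1.5 times of each count, and no called value changed sign under any setting. Of the called members 7 of 10, 7 of 11 and 8 of 10 kept their call under every change of the fit in which they were tested and with every array left out. The filter on dim probe sets left 26 of 45 members in the test and called 9, 10 and 9 of these 26. Of all probe sets that passed the filter, 25.1%, 30% and 17.1% were called. Median centring moved the median of all probe sets in sps1 against wild type to 0.10, against -0.01 as deposited. The median of the members moved to -0.10, against -0.21. Of the calls over all probe sets 60.2% were then higher, against 45.7% (59.3% against 45.8% in sps1 against L17). Median centring also removed the sps1 calls of AT3G28200 (adjusted p = 0.0625) and AT5G06730 (0.0533) against wild type and that of PRX72 against L17 (0.0811). Over all settings the share of the tested probe sets called ran from 4.5% to 25.1%, 6.48% to 30% and 2.5% to 17.1%, against 11.4%, 14.6% and 6.86%. The replicate block gave 10, 10 and 9 members, with 7.94%, 11% and 4.45% of all probe sets called. It removed the calls of AT3G28200 in sps1 against wild type (adjusted p = 0.0634) and PRX72 in sps1 against L17 (0.0826). Arrays with the same replicate number in different lines did not deviate together (r between -0.08 and 0.06 over 9 pairs), so the numbers were not taken as pairing. Each member had a single probe set, so a choice between probe sets could not be tried.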

Other observations

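The probe set shared by the neighbours AT4G37520 and AT4G37530 read 1426, 1347 and 1177 in L17, 1700, 1297 and 1529 in sps1, and 2791, 2463 and 3459 in wild type. All wild type arrays lay above all others, with a log2 fold change of -1.12 ± 0.17 in L17 (limma adjusted p = 0.00436) and -0.93 ± 0.17 in sps1 (limma adjusted p = 0.00793). Which of the 2 genes carries the signal is not known from this probe set.

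UPB1 (AT2G47270), a transcription factor known to repress peroxidase genes in Arabidopsis roots, was looked up after the members' values were seen. It read 2304, 2260 and 1675 in L17, 1596, 1809 and 2188 in sps1, and 1895, 1683 and 2233 in wild type. The lines overlapped, and its 95% intervals were -0.33 to 0.52 in L17 against wild type and -0.49 to 0.37 in sps1 against wild type.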
